A study of Mus musculus with 12 samples.

Results

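The genes of iron storage and uptake were followed in sorted intestinal stem cells (ISCs) of young and old mice. The rule was a list of names with no threshold on measured values, drawn up with earlier results of these data known, namely *Fth1*, *Ftl1*, *Tfrc*, *Heph*, *Cybrd1*, *Aco1*, *Ireb2* and *Ncoa4*. All 8 were found, each under a single identifier, among the 54232 genes of the count table, and all 8 passed the filter on low counts that left 13368 genes to be tested. The study asked how ageing changes ISCs, and these libraries were made by 3′ RNA sequencing, which reads the end of each polyadenylated transcript, from single female mice. ISCs were isolated in 2 ways, each at 2 months (young) and 22 months (old), with 3 libraries in each of the 4 groups. SM6 denotes C57/Bl6 wildtype mice and a sort on a panel of surface markers. Lgr5-GFP denotes mice of the strain labelled Lgr5-EGFP-IRES-CreERT (Lgr5-EGFP-IRES-CreERT2 in the study's methods), in which the Lgr5 locus, active in crypt base stem cells, drives a green fluorescent protein and an inducible recombinase. The strain changed along with the isolation, so that a difference between the isolations cannot be told apart from a difference between strains. For the reporter strain, the labels describe the surface marker sort and a supplementary legend describes a sort on fluorescence, so the names of the isolations are used as the sample titles give them.

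Iron enters most cells as transferrin-bound iron through the transferrin receptor (*Tfrc*) and is kept in ferritin, a hollow protein shell built of heavy (*Fth1*) and light (*Ftl1*) chains. Enterocytes of the small intestine also take up dietary iron at the apical membrane, where a reductase (*Cybrd1*) prepares it for transport, and pass it to the blood at the basolateral membrane, where the ferroxidase hephaestin (*Heph*) oxidises it. In iron-poor cells the iron regulatory proteins (encoded by *Aco1* and *Ireb2*) bind hairpins called iron-responsive elements (IREs), which block translation of ferritin mRNAs and protect *Tfrc* mRNA from decay. *Ncoa4* carries ferritin to the lysosome for the release of its iron. Much of the control of ferritin therefore acts on translation and does not appear in mRNA counts.

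The IREs of the members are shown because they separate the storage mRNAs from the receptor mRNA. Untranslated regions (UTRs) of coding transcripts in GENCODE vM21 (GRCm38) were searched on the transcript strand for a C, 5 bases, a 6-base loop and 5 bases able to pair with the first 5, counting G-T pairs. The loops allowed were CAGTGN and CAGAGN with any last base but G. Each run of 29 bases is written 5′ to 3′ with the loop in capitals. Exon numbers are those of a single annotated transcript. The *Fth1* run lay in 4 transcripts, in which its exon number may differ.
Fth1, 5′ UTR, exon 2, plus strand, chr19:9982732-9982760: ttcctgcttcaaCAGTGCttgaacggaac
Ftl1, 5′ UTR, exon 1, minus strand, chr7:45459779-45459807: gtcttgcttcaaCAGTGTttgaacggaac
Tfrc, 3′ UTR, exon 19, plus strand, chr16:32631160-32631188: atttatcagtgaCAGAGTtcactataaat
Tfrc, 3′ UTR, exon 19, plus strand, chr16:32631219-32631247: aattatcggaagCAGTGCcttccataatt
Tfrc, 3′ UTR, exon 19, plus strand, chr16:32631598-32631626: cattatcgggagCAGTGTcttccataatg
Tfrc, 3′ UTR, exon 19, plus strand, chr16:32631663-32631691: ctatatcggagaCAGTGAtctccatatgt
Tfrc, 3′ UTR, exon 19, plus strand, chr16:32631710-32631738: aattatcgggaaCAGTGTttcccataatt

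Both ferritin genes held a match in the 5′ UTR, and *Tfrc* held 5 matches in the 3′ UTR. Of all genes with an annotated 5′ UTR, 53 of 20570 (0.258%) held the pattern, and of those with a 3′ UTR, 190 of 20952 (0.907%) did. The pattern was not found in the UTRs of *Heph*, *Cybrd1*, *Aco1*, *Ireb2* or *Ncoa4*, which says only that these letters were not in those UTRs. Among 72 further iron handling genes listed by role, it was also found in the 5′ UTR of *Slc40a1*, which encodes the iron exporter ferroportin (chr1:45925465-45925493, minus strand), and in the 3′ UTRs of *Cp* and *Bola3*. The *Slc40a1* run is given for comparison with the ferritin runs.
Slc40a1, 5′ UTR, exon 1, minus strand, chr1:45925465-45925493: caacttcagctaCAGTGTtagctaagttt

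Between 970472 and 3815425 reads were counted per library (median 1424340). Stem cell markers were present in every library (*Lgr5* at 245 to 969 counts, *Olfm4* at 6925 to 30484 counts, *Ascl2* at 117 to 413 counts). The summed level of 12 stem cell markers was 14871 to 18277 CPM (counts scaled to a common library total, here a total adjusted by TMM) in SM6 young, 9693 to 11071 CPM in SM6 old, 14783 to 16216 CPM in Lgr5-GFP young and 12352 to 14210 CPM in Lgr5-GFP old. The sum of 14 enterocyte markers was 2049 to 2134 CPM in SM6 young, 2671 to 9479 CPM in SM6 old, 1833 to 3198 CPM in Lgr5-GFP young and 2146 to 11991 CPM in Lgr5-GFP old. The sum of 8 goblet cell markers was 3758 to 5719 CPM in SM6 young, 6867 to 13513 CPM in SM6 old, 3517 to 4508 CPM in Lgr5-GFP young and 1987 to 3869 CPM in Lgr5-GFP old. Transcripts of defensins, antimicrobial peptides of the neighbouring Paneth cells, took from 1.26% to 23.2% of counts, and were highest in SM6 old replicate 3 (23.1%) and Lgr5-GFP young replicate 1 (23.2%). Among erythroid markers, which bear on genes of iron uptake, *Alas2*, *Slc4a1* and *Epor* were at 0 in all 12 libraries and the summed level of the 7 listed genes did not exceed 6.93 CPM. The summed level of 12 immune markers was 5.79 to 42.5 CPM, with 4 of them at 0 in every library.

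None of the 8 members passed the adjusted threshold of 0.05 in any of the 6 comparisons made with edgeR's quasi-likelihood test, whereas 2.42% of the 13368 tested genes passed it for age in SM6, 0.471% for age in Lgr5-GFP and 2.66% for age averaged over both isolations. These shares rest on 323, 63 and 355 genes, and leaving out a single library gave 145 to 404, 26 to 113 and 228 to 471 genes. The lowest counts came without SM6 young replicate 2, Lgr5-GFP old replicate 1 and SM6 old replicate 1 in that order, and the highest in each case without SM6 old replicate 3. At an unadjusted p under 0.05, *Tfrc* was the single member for age in Lgr5-GFP and for the average age effect, where 9.79% and 12.8% of all genes were under that value, and no member was under it for age in SM6 (13.1% of all genes). For the difference between the age effects (Lgr5-GFP minus SM6), 0.658% of all genes were called (88 genes, or 41 without Lgr5-GFP young replicate 1 to 98 without Lgr5-GFP young replicate 3) and 0 members, and 0 members were under an unadjusted p of 0.05 (9.43% of all genes). A log2 fold change of 1 is a doubling in the old group. Without *Cybrd1*, whose counts were too low for a fold change, the median log2 fold change of the 7 members was 0.14 with age in SM6, -0.096 with age in Lgr5-GFP and 0.030 for their average, beside medians of -0.0070, -0.034 and -0.026 over all tested genes.

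**Figure D1:**
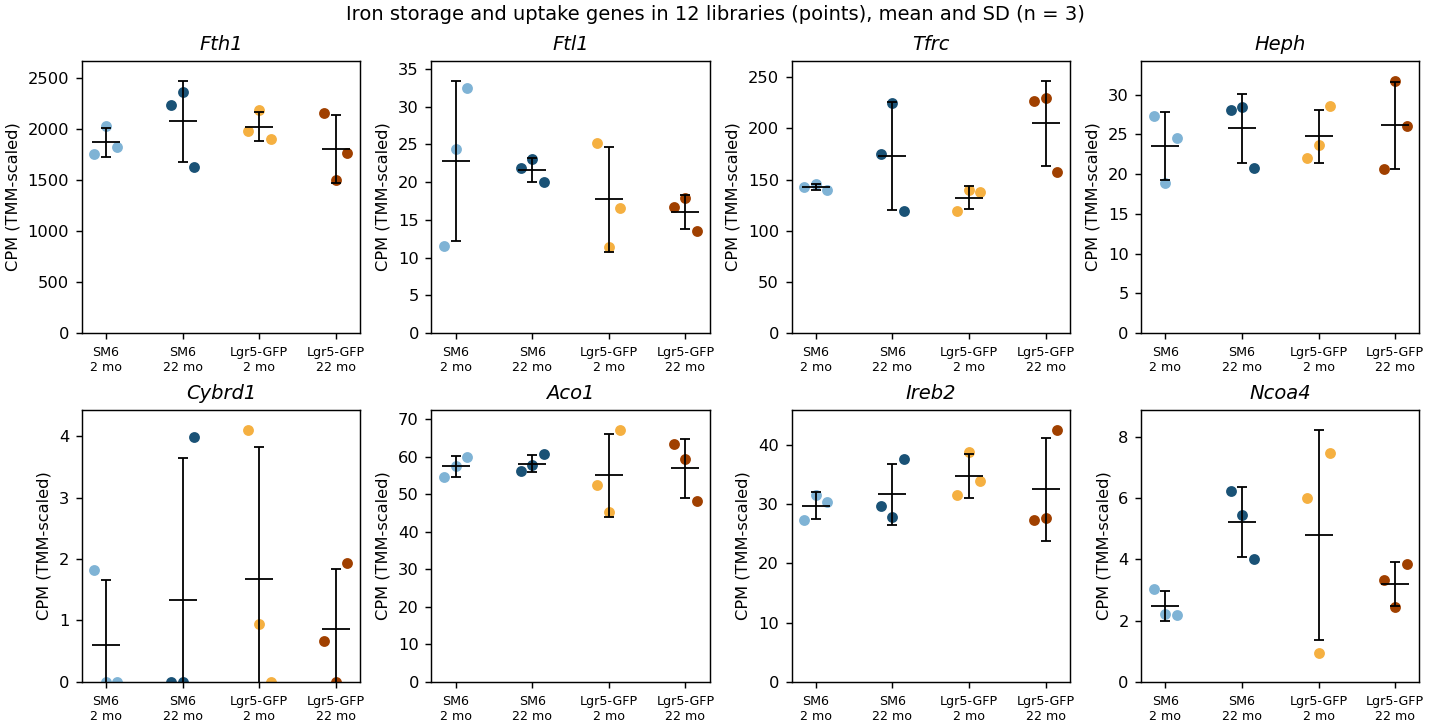
Each panel gives the TMM-scaled CPM of a member in the 12 libraries (points), with the mean and SD of the 3 libraries in each group (bars). *Tfrc* in Lgr5-GFP old (157 to 230 CPM) lay above Lgr5-GFP young (119 to 140 CPM), whereas *Fth1* overlapped between ages in both isolations.

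The storage genes are described first. *Fth1*, the heavy ferritin chain with the ferroxidase site (ENSMUSG00000024661, GRCm38 chr19:9980598-9985098, plus strand), had 1832 to 6290 counts per library. In SM6 it stood at 1753, 2030 and 1823 CPM in young and 2233, 2366 and 1625 CPM in old mice, that is 1869 ± 144 against 2075 ± 395 CPM (SD, n = 3). In Lgr5-GFP it stood at 1982, 2184 and 1905 CPM in young and 2161, 1498 and 1767 CPM in old mice, that is 2023 ± 144 against 1809 ± 334 CPM. In SM6 old libraries lay both above and below the young range, in Lgr5-GFP they lay inside or below it, and the SD was larger in old mice in both. Because these are bulk libraries, a change in the number of cells of a type and a change in RNA per cell cannot be told apart.

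The log2 fold change of *Fth1* with age was 0.15 in SM6 (95% interval -0.21 to 0.51, edgeR adjusted p = 0.798) and -0.16 in Lgr5-GFP (-0.52 to 0.20, adjusted p = 0.832). Leaving out a single library moved *Fth1* from 0.046 (without SM6 old replicate 2) to 0.31 (without SM6 old replicate 3) in SM6, and from -0.31 (without Lgr5-GFP old replicate 1) to -0.040 (without Lgr5-GFP old replicate 2) in Lgr5-GFP. The average over both was -0.0053 (-0.26 to 0.25, edgeR adjusted p = 0.998), which bounds the average at 0.835-fold to 1.19-fold of the young level. The difference between the isolations was -0.31 (-0.82 to 0.20, edgeR adjusted p = 0.756). The last 500 bases of *Fth1* matched the processed pseudogene Gm6977 at 90.7% identity over 323 bases, and Gm6977 held 45 counts in all libraries together against 37578 for *Fth1*.

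*Ftl1*, the light ferritin chain (ENSMUSG00000050708, chr7:45457944-45459884, minus strand), had 12 to 80 counts per library. It stood at 11.5, 24.4 and 32.5 CPM in SM6 young and 21.8, 23.1 and 20.0 CPM in SM6 old, and at 25.2, 11.3 and 16.6 CPM in Lgr5-GFP young and 16.7, 17.9 and 13.5 CPM in Lgr5-GFP old. In both isolations the old libraries lay inside the range of the young ones. The log2 fold change with age was -0.063 in SM6 (-0.76 to 0.64, edgeR adjusted p = 0.972), -0.20 in Lgr5-GFP (-0.93 to 0.52, adjusted p = 0.917) and -0.13 on average (-0.64 to 0.37, adjusted p = 0.895). The average for *Ftl1* is thus bounded only at 0.643-fold to 1.29-fold of the young level.

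The counts of *Ftl1* are uncertain because a near-identical copy was counted beside it. Its last 500 bases matched Ftl1-ps1, a gene annotated as protein coding, at 99.4% identity over all 500 bases, so the division of 3′ reads between the genes is uncertain. Ftl1-ps1 held 1346 counts in all, between 66 and 235 per library, against 388 for *Ftl1*. The share of *Ftl1* in the sum of both ran from 12.4% in Lgr5-GFP young replicate 2 (Wilson 95% interval 7.22 to 20.4%, counting error only) to 32.1% in SM6 young replicate 3 (25.0 to 40.3%). The 7 other matching processed pseudogenes held at most 2 counts each in all libraries together, and small RNA genes that matched there at most 14. With the copies summed into *Ftl1*, the log2 fold change with age was 0.13 in SM6 and 0.0055 on average, each of the opposite sign to the value for *Ftl1* alone.

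**Figure D2:**
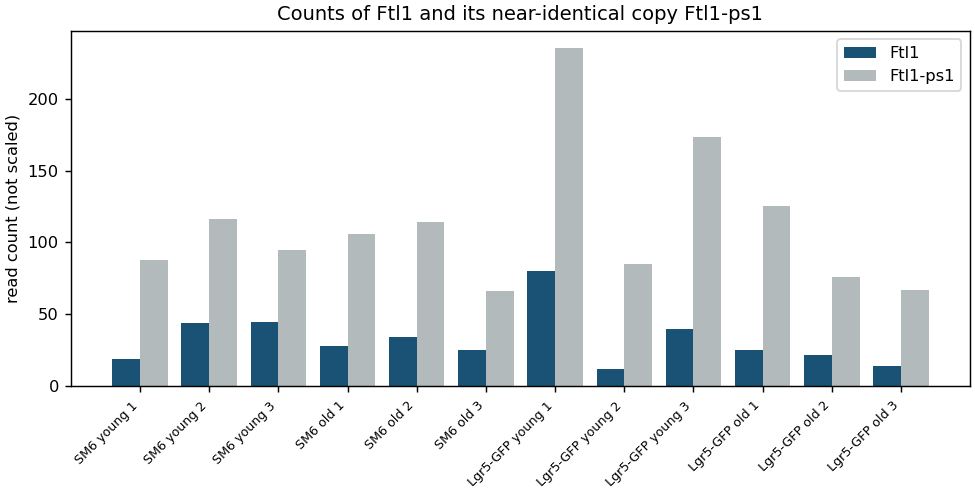
Bars give the unscaled read counts of *Ftl1* and of Ftl1-ps1 in each of the 12 libraries. Ftl1-ps1 held more counts than *Ftl1* in every library, with 66 to 235 against 12 to 80.

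Of the uptake genes, *Tfrc*, the transferrin receptor (ENSMUSG00000022797, chr16:32608920-32632794, plus strand), had the highest average old to young ratio among the 6 members with at least 12 counts in every library. In SM6 young its level was 143, 145 and 140 CPM and in SM6 old 175, 225 and 119 CPM. In Lgr5-GFP young it was 119, 140 and 138 CPM and in Lgr5-GFP old 227, 230 and 157 CPM. All 3 old libraries lay above all 3 young ones in Lgr5-GFP, as was the case in either direction for 14.6% of all tested genes. In the same comparison the defensin share was lower in every old library (2.27%, 2.41% and 3.86%) than in any young one (23.2%, 12.4% and 5.57%), as were the summed Paneth cell markers (24988 to 40544 CPM against 59295 to 327901 CPM) and the summed immune markers (5.79 to 13 CPM against 19.5 to 42.5 CPM). In SM6, 2 old libraries lay above the young range and replicate 3 lay below it. The group means were 142.7 ± 2.51 CPM against 173.0 ± 53.2 CPM in SM6 and 132.4 ± 11.6 CPM against 204.9 ± 41.3 CPM in Lgr5-GFP (SD, n = 3).

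The log2 fold change of *Tfrc* with age was 0.64 in Lgr5-GFP (SE 0.20, 95% interval 0.23 to 1.05), or 1.56-fold, with an unadjusted p = 0.00387 that did not pass adjustment in edgeR (adjusted p = 0.208). In SM6 it was 0.28 (-0.13 to 0.69, edgeR adjusted p = 0.620), and ran from 0.042 without SM6 old replicate 2 to 0.50 without SM6 old replicate 3. The difference of 0.36 between the isolations (-0.22 to 0.94) did not pass either (edgeR adjusted p = 0.755). Averaged over both isolations the log2 fold change was 0.46 (SE 0.14, 0.17 to 0.75), or 1.37-fold, with an edgeR adjusted p = 0.0943. *Tfrc* thus did not pass the threshold as analysed.

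That outcome for *Tfrc* depended on the fit. The average age effect was between 0.34 and 0.57 in 24 alternatives and its adjusted p between 0.0108 and 0.302, and *Tfrc* was called in 7 of the 24. Leaving out a single library gave an average of 0.57 for SM6 old replicate 3 (edgeR adjusted p = 0.0108), 0.54 for Lgr5-GFP old replicate 3 (adjusted p = 0.0494) and 0.34 for SM6 old replicate 2 (adjusted p = 0.302). SM6 old replicate 3 and Lgr5-GFP young replicate 1, the libraries richest in defensin transcripts, were also those with the lowest *Tfrc* of their groups. Without both libraries the average effect was 0.53 (edgeR adjusted p = 0.0265), and a fit that took the defensin share as covariate gave 0.38 (adjusted p = 0.176). With that covariate the age effect on *Tfrc* was 0.30 in Lgr5-GFP (edgeR adjusted p = 0.867) and 0.46 in SM6 (adjusted p = 0.325), that is lower than without it in Lgr5-GFP and higher in SM6. The sum of enterocyte markers ran to higher values in old than in young mice of both isolations, as given above. Within SM6 old that sum was 9479, 5036 and 2671 CPM in replicates 1 to 3, and within Lgr5-GFP old 2954, 11991 and 2146 CPM, so that replicate 3 had the lowest sum and the lowest *Tfrc* in both groups. The sum of goblet cell markers was likewise lowest in replicate 3, at 13297, 13513 and 6867 CPM within SM6 old and 3869, 3709 and 1987 CPM within Lgr5-GFP old. Stem cell markers, lower in all old libraries of both isolations, were highest within each old group in replicate 3 (11071 and 14210 CPM). The young groups did not follow this order, since Lgr5-GFP young replicate 1, the lowest in *Tfrc*, had a middle enterocyte sum (2495 CPM) and the highest goblet cell sum of its group (4508 CPM). The part of other cell types' transcripts in the *Tfrc* values was not tested. In Lgr5-GFP the defensin share was lower in every old library than in any young one. Age and that share therefore cannot be told apart there by the covariate fit.

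**Figure D3:**
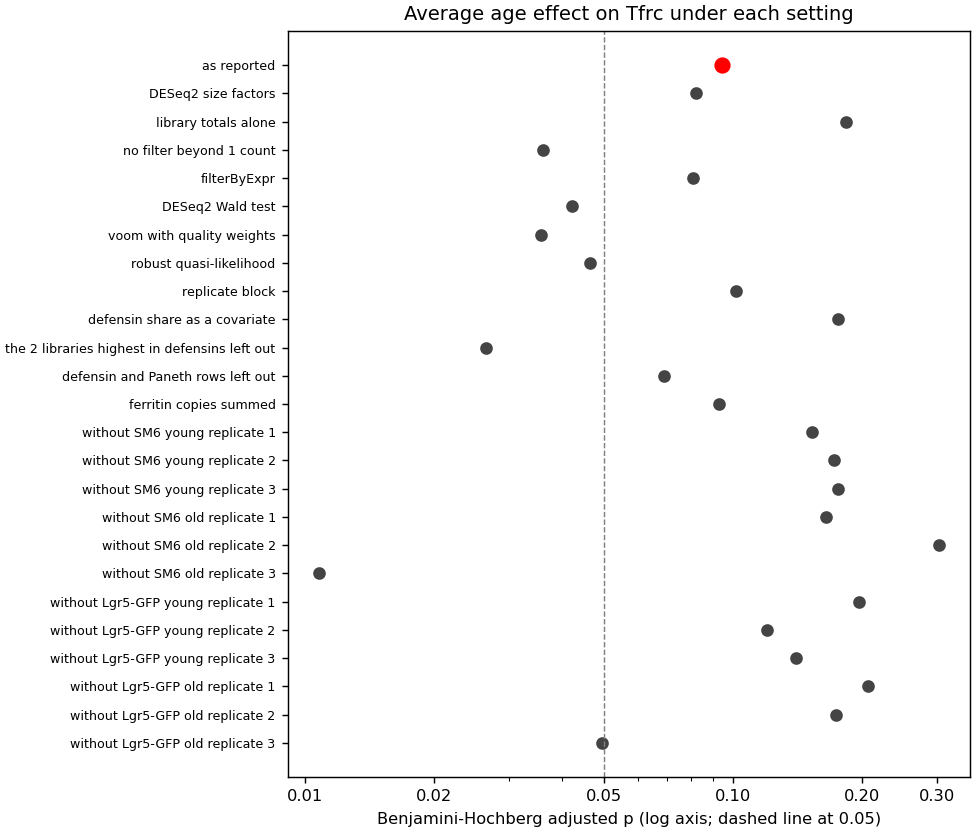
The adjusted p of the average age effect on *Tfrc* (log axis) is given for the analysis as reported (red, 0.0943) and for 24 alternatives (grey), with a dashed line at 0.05. In 7 alternatives the point lay left of the line, and the lowest value (0.0108) was that without SM6 old replicate 3.

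*Cybrd1*, the apical reductase of enterocytes (ENSMUSG00000027015, chr2:71117923-71142926, plus strand), was scarcely detected. Its counts were 3, 0 and 0 in SM6 young, 0, 0 and 5 in SM6 old, 13, 1 and 0 in Lgr5-GFP young and 1, 0 and 2 in Lgr5-GFP old, so that 6 of 12 libraries were at 0. A count of 0 allows up to 3 counts, and no fold change is given. The highest counts, 13 and 5, were in Lgr5-GFP young replicate 1 and SM6 old replicate 3, the libraries with the highest defensin share. *Heph* (ENSMUSG00000031209, chrX:96455359-96574485, plus strand) was present in every library at 25 to 70 counts. Its level was 23.6 ± 4.32 CPM in SM6 young, 25.8 ± 4.34 CPM in SM6 old, 24.7 ± 3.40 CPM in Lgr5-GFP young and 26.1 ± 5.53 CPM in Lgr5-GFP old (SD, n = 3). Ages overlapped in both isolations, and the average log2 fold change of *Heph* was 0.10 (-0.29 to 0.49, edgeR adjusted p = 0.895). The *Heph* locus overlaps the pseudogene Rpl17-ps8 on the same strand (910 counts in all) and *Hsf3* on the other strand (38 counts). These overlaps lie at chrX:96484859-96485479 and chrX:96455359-96456294, whereas the 3′ end of the locus is at 96574485. Overlap of exons was not examined, nor whether reads of *Heph* were assigned otherwise.

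The genes of both iron regulatory proteins had overlapping ages in each isolation. *Aco1*, which encodes iron regulatory protein 1, a cytosolic aconitase when it holds an iron-sulfur cluster (ENSMUSG00000028405, chr4:40143081-40198338, plus strand), stood at 54.6, 57.6 and 60.0 CPM in SM6 young and 56.1, 57.7 and 60.7 CPM in SM6 old. In Lgr5-GFP it stood at 52.6, 45.4 and 67.1 CPM in young and 63.3, 59.4 and 48.2 CPM in old mice. The average log2 fold change of *Aco1* was 0.030 (-0.25 to 0.31, edgeR adjusted p = 0.972). *Ireb2*, which encodes iron regulatory protein 2, degraded in iron-replete cells (ENSMUSG00000032293, chr9:54863789-54912530, plus strand), had means of 29.8 ± 2.21 CPM and 31.7 ± 5.17 CPM in SM6 young and old and of 34.7 ± 3.69 CPM and 32.5 ± 8.63 CPM in Lgr5-GFP young and old. Its average log2 fold change was -0.0055 (-0.36 to 0.35, edgeR adjusted p = 1.00). The intervals bound the average change at 0.839-fold to 1.24-fold for *Aco1* and at 0.780-fold to 1.27-fold for *Ireb2*.

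*Ncoa4*, the ferritin carrier of the lysosomal route (ENSMUSG00000056234, chr14:32159865-32179855, plus strand), rested on few reads. Its counts were 5, 4 and 3 in SM6 young, 8, 8 and 5 in SM6 old, 19, 1 and 18 in Lgr5-GFP young and 5, 3 and 4 in Lgr5-GFP old. On the scaled level all 3 SM6 old libraries lay above all 3 young ones, 5.22 ± 1.13 CPM against 2.47 ± 0.486 CPM (SD, n = 3), and 17.5% of all tested genes were likewise without overlap for age in SM6. The log2 fold change of *Ncoa4* was 1.05 in SM6 (-0.32 to 2.43, edgeR adjusted p = 0.560) and -0.70 in Lgr5-GFP (-2.02 to 0.62, adjusted p = 0.793), where the young libraries ran from 0.945 to 7.45 CPM. The difference between the isolations was -1.75 (-3.66 to 0.15) with an unadjusted p = 0.0695 and an edgeR adjusted p = 0.561, and the average was 0.18 (-0.78 to 1.13, adjusted p = 0.933). Leaving out a single library moved the Lgr5-GFP value of *Ncoa4* from -1.05 (without young replicate 2) to -0.33 (without young replicate 3) and the average from 0.0016 to 0.36, again without those libraries. With limma voom the average was 0.42. At these counts neither direction could be told from the spread between libraries.

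**Figure D4:**
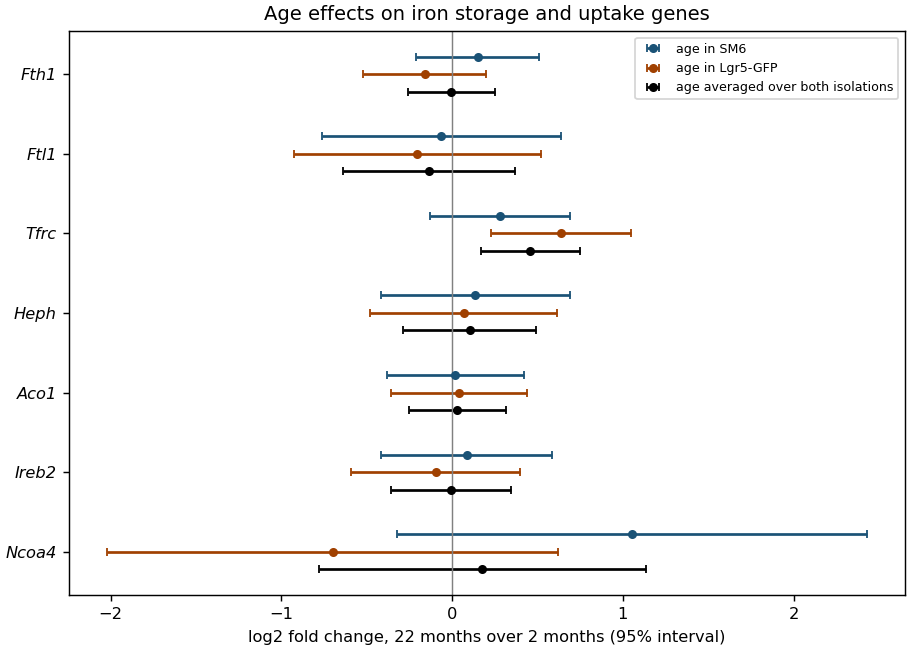
Points give the log2 fold change of old over young for 7 members (*Cybrd1* left out) in SM6, in Lgr5-GFP and averaged over both, and lines give 95% intervals. The interval of *Tfrc* lay above 0 in Lgr5-GFP (0.23 to 1.05) and on average (0.17 to 0.75), before adjustment over all genes, and every other interval crossed 0.

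The isolations were also compared at each age, where a difference may come from the strain or from the sort. None of the 8 members was called at 2 months or at 22 months (0.0898% and 0.718% of all tested genes by edgeR), and none was under an unadjusted p of 0.05 (7.47% and 9.4% of all genes). These shares rest on 12 and 96 genes. Leaving out a single library gave 6 (without SM6 young replicate 2 or Lgr5-GFP young replicate 2) to 39 genes (without SM6 old replicate 3) at 2 months. It gave 40 (without Lgr5-GFP old replicate 3) to 120 genes (without Lgr5-GFP young replicate 1) at 22 months. At 2 months *Tfrc* was lower in all 3 Lgr5-GFP libraries than in all 3 SM6 libraries, with a log2 fold change of -0.11 (-0.52 to 0.30) that became 0.17 with the defensin covariate, and 13.7% of all genes did not overlap in that comparison. At 22 months *Ftl1* and *Ncoa4* were lower in every Lgr5-GFP library, where 13.5% of all genes did not overlap. For *Ncoa4* the nearest values were 3.99 CPM on 5 counts in SM6 old and 3.86 CPM on 4 counts in Lgr5-GFP old. The copy Ftl1-ps1 overlapped, at 52.7 to 82.6 CPM in SM6 old and 61.8 to 83.3 CPM in Lgr5-GFP old. For *Ftl1* the log2 fold change was -0.28 at 2 months (-0.97 to 0.40) and -0.43 at 22 months (-1.17 to 0.32), and the value at 2 months turned to 0.14 with the copies summed and to 0.048 with the defensin covariate. For *Fth1* it was 0.11 at 2 months (-0.25 to 0.47) and -0.20 at 22 months (-0.56 to 0.16), and *Tfrc* stood at 0.24 at 22 months (-0.17 to 0.65).

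Of the 72 further iron handling genes, 60 were tested. For age in SM6, 1 of the 60 was lower and 0 were higher in old mice, where 2.42% of all genes were called. On average over the isolations 1 was lower and 0 were higher, where 2.66% of all genes were called. For age in Lgr5-GFP, for the difference between the age effects and for the isolations at each age, 0 of the 60 were called by edgeR, with 3, 8, 3 and 7 genes at an unadjusted p under 0.05, beside 9.79%, 9.43%, 7.47% and 9.4% of all genes. For SM6 and the average, 10 and 7 of the 60 were under that value, beside 13.1% and 12.8% of all genes. Their 60 log2 fold changes had a median of 0.059 with age in SM6, 0.017 with age in Lgr5-GFP and 0.052 for the average.

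The gene lower in SM6 old was *Lyrm4*, which encodes a small partner of the cysteine desulfurase that starts iron-sulfur cluster assembly. It fell from 162, 167 and 185 CPM to 78.7, 86.9 and 121 CPM, a log2 fold change of -0.84 (SE 0.22, edgeR adjusted p = 0.0413). In the same comparison the summed stem cell markers were lower, and the summed goblet cell and enterocyte markers higher, in all old libraries, as given above, and their part in the *Lyrm4* value was not tested. In Lgr5-GFP the libraries of *Lyrm4* overlapped between ages, at 126 ± 24.3 CPM in young and 111 ± 38.3 CPM in old mice (SD, n = 3), and its difference between the isolations did not pass (edgeR adjusted p = 0.511). The locus of *Lyrm4*, a gene on the minus strand, overlaps that of *Fars2* on the other strand (1100 counts in all libraries). The overlap spans positions 36117412 to 36117526, at the 5′ end of *Lyrm4*. Use of strand in the counting was not given in the sources used here. The gene lower on average was *Arnt*, the shared partner subunit of the hypoxia-inducible factors, which act on iron absorption genes in the intestine. The average effect of age on it was -0.77 on the log2 scale (SE 0.21, edgeR adjusted p = 0.0417). The summed stem cell markers were also lower in all old libraries of each isolation, and their part was not tested. *Arnt* had means of 33.3 ± 5.55 CPM in young and 19.9 ± 5.43 CPM in old mice of SM6 and of 35.3 ± 2.80 CPM and 19.9 ± 8.61 CPM in Lgr5-GFP (SD, n = 3), and neither isolation passed alone (edgeR adjusted p = 0.248 and 0.299). The call of *Lyrm4* was lost in 7 and that of *Arnt* in 10 of 12 fits that left out a single library. The defensin covariate ended the call of *Lyrm4* and not that of *Arnt*, and leaving out the 2 libraries highest in defensins ended that of *Arnt* and not that of *Lyrm4*.

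By role, 11 of 18 genes of iron entry, export and carriers were tested and 0 were called, and the median log2 fold change with age was 0.37 for SM6 and 0.078 for Lgr5-GFP. Of 19 genes of sensing, chaperoning and release, 14 were tested, with medians of -0.057 and 0.13 and with *Arnt* as the call. All 35 genes of mitochondrial iron, iron-sulfur clusters and haem synthesis were tested, with medians of 0.030 and -0.0051 and with *Lyrm4* as the call. Among the genes of iron transport in the gut, *Slc11a2*, the apical iron importer, had means of 20.6 ± 3.83 CPM and 27.8 ± 2.24 CPM in SM6 young and old and of 20.6 ± 0.641 CPM and 22.8 ± 4.25 CPM in Lgr5-GFP young and old. *Slc40a1* (ferroportin) had 6.32 ± 1.41 CPM and 12.7 ± 7.68 CPM in SM6 young and old and 6.23 ± 0.715 CPM and 6.64 ± 2.71 CPM in Lgr5-GFP young and old. *Slc39a14*, an importer of iron and zinc, had 15.2 ± 1.38 CPM and 26.5 ± 7.54 CPM in SM6 young and old and 18.0 ± 5.70 CPM and 15.9 ± 7.63 CPM in Lgr5-GFP young and old. *Fbxl5*, the ubiquitin ligase subunit that marks iron regulatory proteins for decay, had 41.3 ± 5.65 CPM and 38.0 ± 5.27 CPM in SM6 young and old and 33.9 ± 7.38 CPM and 40.2 ± 7.39 CPM in Lgr5-GFP young and old. None of these 4 passed the adjusted threshold in any comparison, and *Hmox1* (haem oxygenase 1), with at most 1 count in a library, was not tested.

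**Figure D5:**
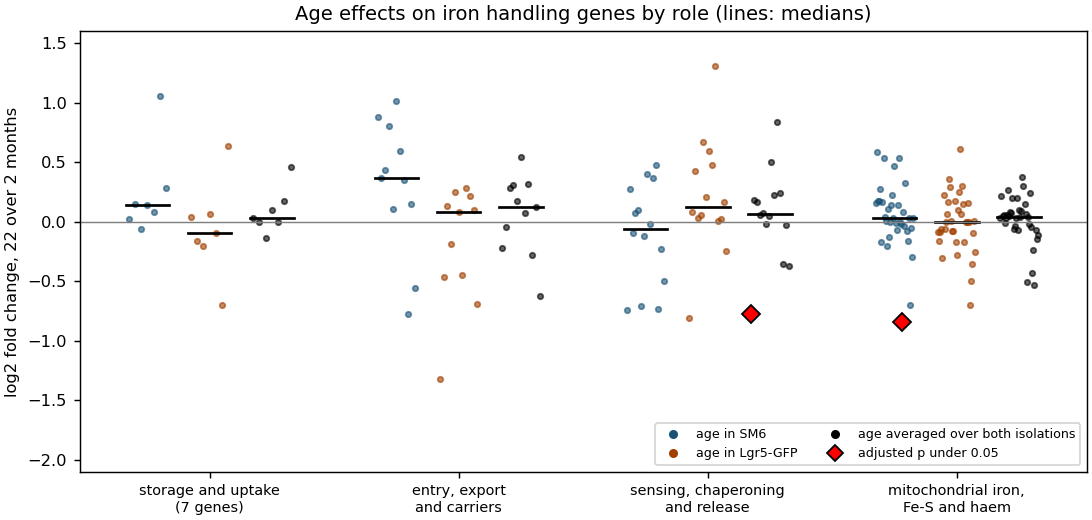
Points give the log2 fold change of old over young for 7 members and for the 60 tested genes of the 3 lists, by role, in SM6 (blue), in Lgr5-GFP (orange) and averaged (black). Black lines are medians and the red diamonds are *Arnt* (-0.77, average) and *Lyrm4* (-0.84, SM6), the calls among these genes in the 3 age comparisons.

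For each member the genes of at least 50 CPM whose log2(CPM + 2) followed it most closely over the 12 libraries were listed. The points share the 4 groups and the defensin content of the libraries, and the coefficients are a description with no test. *Fth1* was most like Hacd2 (Pearson r = 0.915), Cldn3 (0.902) and Gpx1 (0.887), the last a selenium-dependent glutathione peroxidase. *Tfrc* was most like Ces2a (0.890), Retsat (0.850) and Etfb (0.841). *Ftl1* was most like Atp6v1d (0.803), a subunit of the proton pump of lysosomes, Gm11966 (0.777) and Ctsd (0.719), a lysosomal protease. These coefficients of *Ftl1* rest on 12 to 80 counts per library and on an uncertain division of reads with its copy.

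*Heph* was most like Ptrh2 (0.786), Nrip1 (0.782) and Dap3 (0.779), *Aco1* like Ttc1 (0.799), Tcp1 (0.785) and Txlna (0.784), and *Ireb2* like Cse1l (0.828), Pstk (0.776) and Psmg1 (0.775). *Ncoa4* was most like Sec31a (0.822), Pkm (0.812) and Abr (0.792). *Cybrd1* was most like Itpr3 (0.851), Pnliprp2 (0.833) and Lyz1 (0.813), the last the lysozyme of Paneth cells. At the counts of *Cybrd1* and *Ncoa4* such coefficients rest on a few reads.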

How the data were processed

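The authors aligned 3′ reads to GRCm38 with STAR 2.4.2a and counted them over exons of GENCODE genes with featureCounts. The deposited values are these raw counts per gene, with no scaling. The kit adds molecular identifiers, but whether duplicates were collapsed is not given in the sources used here, so the Wilson intervals of shares and the floor of a count of 0 cover counting error only, whereas intervals of fold changes also carry the spread between libraries. Library totals ran from 970472 to 3815425 counts. Each library was made from a single mouse.

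Genes with more than 5 reads and at least 1 CPM in at least 1 library were kept (13368 genes). All 12 libraries entered 1 quasi-likelihood fit in edgeR 4.0.16, with a mean for each group (R 4.3.3, TMM scaling, two-sided tests), with Benjamini-Hochberg adjustment over all tested genes and calls at an adjusted p under 0.05. The common dispersion was 0.0434. CPM values use the scaled totals. The 6 comparisons share libraries. Copies of the members were sought with blastn 2.17.0 in the last 500 bases of their transcripts (at least 90% identity over at least 100 bases). Positions came from GENCODE vM21, a later release on the same build.

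The members and gene lists were chosen with earlier results of these data known. Named were all members, every called gene of the iron lists, *Slc11a2*, *Slc40a1*, *Fbxl5*, *Hmox1* and *Slc39a14*, copies of the ferritin genes, and the 3 genes most like each member. Alternatives were other scalings and filters, DESeq2 1.42.0, limma 3.58.1 (voom with quality weights), a robust fit, the replicate number as a block, the defensin share, ferritin copies summed, other thresholds and each library left out. The script was tested on simulated data. Deviations of same-numbered libraries from their group means correlated only weakly (-0.044 to 0.048), so the numbers were not taken as pairs.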

Additional observations from a re-analysis of the deposited data

How the results depend on the processing

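*Cybrd1*, *Ncoa4* and *Ftl1* rest on few reads, *Ftl1* shares its sequence with a copy, and with 3 libraries a group the 95% intervals for average ageing reached from 0.780-fold to 1.41-fold among *Fth1*, *Heph*, *Aco1* and *Ireb2*. Over all alternatives, 563 fold changes stayed on the same side of 0 and of the threshold, 45 reversed, 7 became called and 20 lost the call, and the cause was not tested. The number of members called stayed as reported in 152 cases and moved in 8, all of them *Tfrc* in the average age effect. There 1 member was called with no filter beyond 1 count (0.44, adjusted p = 0.0361), by DESeq2's Wald test (0.47, 0.0422), by limma voom with quality weights (0.49, 0.0356), by the robust edgeR fit (0.46, 0.0465), without the 2 libraries highest in defensins (0.53, 0.0265) and at a threshold of 0.1. Leaving out 1 library gave 0 to 1, with 1 without SM6 old replicate 3 or Lgr5-GFP old replicate 3.

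With the replicate block, the average effect on *Tfrc* was 0.43 (edgeR adjusted p = 0.102), 0 members were called in every comparison, and 331, 57 and 360 genes were called for age in SM6, for age in Lgr5-GFP and for the average, against 323, 63 and 355 without it. Same-numbered libraries had correlations between -0.044 and 0.048, not all highest with their own number, and shared only a number.

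All reversals concerned fold changes that were not called, the largest being the *Tfrc* and *Fth1* differences of age effects (0.36 and -0.31 as reported). For *Ftl1*, the age effect in SM6 became 0.040 with voom, 0.16 with the defensin covariate, 0.00094 without the 2 libraries highest in defensins and 0.13 with copies summed. In Lgr5-GFP it became 0.027 with library totals alone and 0.16 without those 2 libraries, and on average 0.082 without them and 0.0055 with copies summed. Its difference between isolations at 2 months became 0.048 with the defensin covariate and 0.14 with copies summed. For *Fth1*, library totals alone gave 0.031 in Lgr5-GFP, 0.026 on average, 0.010 for the difference of age effects and -0.024 between isolations at 2 months. Its average was also 0.0098 with DESeq2 size factors, 0.010 by DESeq2, 0.032 with voom, 0.069 without the 2 libraries and 0.013 without defensin and Paneth cell genes. The average for *Ireb2* became 0.010 with DESeq2 size factors, 0.0070 with library totals, 0.011 by DESeq2, 0.013 with the defensin covariate and 0.012 without defensin and Paneth cell genes. For *Tfrc*, the defensin covariate turned the difference of age effects to -0.16 and the difference between isolations at 2 months to 0.17. Library totals alone also moved the median of all genes, to -0.16 in SM6, 0.16 in Lgr5-GFP, 0.35 for the difference, -0.15 at 2 months and 0.21 at 22 months.

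Leaving out 1 library gave -0.38 to 0.26 for *Ftl1* with age in SM6 (reversed without SM6 young replicate 3), -0.38 to 0.16 in Lgr5-GFP (without Lgr5-GFP young replicate 1), -0.29 to 0.048 on average and -0.65 to 0.037 between isolations at 2 months. On average it gave -0.080 to 0.075 for *Fth1*, 0.020 to 0.18 for *Heph*, -0.020 to 0.11 for *Aco1* and -0.12 to 0.052 for *Ireb2*. *Lyrm4* in SM6 lost its call with the defensin covariate (-0.77, adjusted p = 0.129) but not without the 2 libraries highest in defensins (-1.04, 0.0112), and lost it in 7 of 12 fits without 1 library, where it ran from -1.04 to -0.70. The losses came without SM6 young replicates 1 to 3, SM6 old replicates 1 and 2, Lgr5-GFP young replicate 2 or Lgr5-GFP old replicate 1. *Arnt* on average kept its call with the defensin covariate (-0.81, 0.0346) and lost it with library totals alone (-0.75, 0.0724), without the 2 libraries highest in defensins (-0.72, 0.122) and in 10 of 12 fits without 1 library, where it ran from -0.92 to -0.64. It held without SM6 old replicate 1 or Lgr5-GFP old replicate 2.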
